A study of Mus musculus with 7 samples.

Results

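The genes described here encode 7 named groups of proteins, mostly pre-mRNA splicing factors, measured in RAW264.7 cells labelled Gfi1 knockout and in wild-type RAW264.7 cells. They were chosen by gene symbol alone: the SR proteins (Srsf and a number), the Snrp proteins, the SF3 proteins (Sf3a and Sf3b), the Prpf proteins, the hnRNP proteins, the Lsm proteins and the U2af proteins. The symbols also bring in Lsm genes with other roles, such as Lsm1 in mRNA decay and Lsm10 and Lsm11 in histone mRNA processing. All are counted below as splicing genes. Of 9999 genes with a probe set of their own, 72 met this rule, and they comprised 9 SR, 8 Snrp, 9 SF3, 12 Prpf, 19 hnRNP, 12 Lsm and 3 U2af genes. Their 169 probe sets are among 17335 probe sets annotated to a single symbol, and of several sets for 1 gene the brightest on average, called the representative, stands for the gene. Another 12 probe sets that name a splicing gene together with other symbols were left out.

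RAW264.7 is a mouse macrophage-like cell line, and RNA from it was measured on 4 arrays labelled Gfi1 knockout and 3 arrays labelled wild type. The samples came from time T0, had received no treatment, and were titled biological replicates. The titles name the knockout cells RAW GfI1-1. How the gene was disrupted, whether the line is 1 clone, and whether replicates came from separate cultures are not stated in the labels, so p-values measure the spread between these arrays, which may be technical.

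Pre-mRNA splicing is carried out by the spliceosome, which assembles on each intron from small nuclear ribonucleoproteins (snRNPs) and many further proteins. U1 snRNP pairs with the start of the intron, U2AF and the SF3 complexes bring U2 snRNP to its end, and the tri-snRNP of U4, U6 and U5, which carries several Prpf proteins, completes the assembly. SR proteins mostly promote the use of nearby exons and hnRNP proteins often oppose it, so that their balance shifts alternative splicing, which in macrophages affects many immune transcripts. Gfi1 is a zinc finger transcriptional repressor of blood cells that binds DNA at sites with the core AATC.

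Signals are given as log2 of the deposited intensity, and a difference is the mean of the knockout arrays minus the mean of the wild-type arrays. Gfi1 itself was low on every array. Its log2 signal was 4.93, 5.02, 3.97 and 3.97 on the knockout arrays and 2.66, 2.85 and 2.98 on the wild-type arrays. The transcript was thus higher, not lower, under the knockout label (4.47 ± 0.58, n = 4, against 2.83 ± 0.16, n = 3, SD; limma adjusted p = 0.00447). This goes against a loss of the transcript. Which part of the gene was edited and where the probes lie are not known here, so the signal does not check the label, and knockout below always means the label. Of 8 macrophage markers measured, 6 lay above the 75th percentile of signal on every array, while Itgam lay between percentiles 37.7 and 53.9 and Adgre1 between 48.2 and 79.1. All 8 were lower on average under the knockout label, 6 of them at an adjusted p under 0.05 and 3 with random blocks. Adgre1, which encodes F4/80, differed most (7.20 against 8.72 in wild type, -1.51, adjusted p = 1.77e-05), and Csf1r, the receptor of the growth factor CSF1, fell by 0.60 (adjusted p = 0.000264). The part of these differences in the splicing results was not tested. None of the 17 markers listed for other cell types is among the genes used here, so other cell types were not checked. The knockout arrays fell into 2 pairs that no label separates. The SD of the log2 difference over genes was 0.16 between knockout replicates 1 and 2, 0.14 between replicates 3 and 4, and 0.52 to 0.54 across these pairs, against 0.13 to 0.19 between wild-type arrays. Calls are therefore also given with the pairs and the wild-type arrays as random blocks, and the counts of members with a pair left out. All wild-type arrays form a single block beside the 2 knockout pairs. The random-block fit therefore cannot separate a difference between blocks from the knockout label, and its p-values may be too small.

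The splicing genes moved in both directions. By limma with adjustment over all 9999 genes, 13 members rose and 11 fell at an adjusted p under 0.05, and 48 did not pass. The called share was 33.3%, against 43.1% of all genes, with 21.5% of all genes higher and 21.6% lower. The groups of arrays did not overlap for 37 members (51.4%), against 54.5% of all genes. Differences ran from -1.12 for Srsf6 to 1.05 for Hnrnpdl, with a median of -0.06, against a median of -0.01 over all genes. The median size of the difference was 0.24 for members and 0.28 for all genes, with median standard errors of 0.09 and 0.10. A change of at least 2-fold was seen in 5 members (6.94%), against 8.16% of all genes. With random blocks 6 members kept their call, 3 higher and 3 lower, against 9.04% of all genes. No member's representative signal was among the lowest 5% of genes in either group.

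The 6 members whose calls held with random blocks came from 5 of the 7 groups. Srsf6, an SR protein that acts on alternative exons, had log2 signals of 8.18, 8.30, 8.41 and 8.25 on the knockout arrays and 9.38, 9.44 and 9.41 on the wild-type arrays. It fell 2.17-fold (difference -1.12, SE 0.07, adjusted p = 6e-05, and 0.0106 with random blocks). Sf3b3, a scaffold of the SF3b complex in U2 snRNP, read 7.72, 7.72, 7.69 and 7.66 under the knockout label and 8.72, 8.74 and 8.75 in wild type. All knockout arrays were about 1 log2 unit lower, with almost no spread, which is a 2.06-fold fall (difference -1.04, SE 0.05, adjusted p = 2.69e-05, and 0.00388 with random blocks). Prpf4b, a kinase associated with the tri-snRNP, read 6.51, 6.53, 6.78 and 6.59 on the knockout arrays and 7.70, 7.63 and 7.57 on the wild-type arrays. It fell 2.04-fold (difference -1.03, SE 0.08, adjusted p = 0.00016, and 0.0181 with random blocks).

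The 3 that rose were an snRNP protein and a pair of hnRNP proteins. Hnrnpdl, a relative of the RNA-binding protein AUF1 (Hnrnpd), read 11.36, 11.39, 11.20 and 11.10 on the knockout arrays and 10.15, 10.23 and 10.23 on the wild-type arrays. It rose 2.08-fold (difference 1.05, SE 0.09, adjusted p = 0.000166, and 0.00872 with random blocks). Hnrnpa1, which represses many splice sites, read 10.15, 10.27, 10.24 and 10.28 under the knockout label and 9.39, 9.39 and 9.29 in wild type. The groups stood well apart, a 1.84-fold rise (difference 0.88, SE 0.06, adjusted p = 0.000104, and 0.0178 with random blocks). Snrpa1, a protein of U2 snRNP, read 9.91, 10.00, 9.97 and 9.93 on the knockout arrays against 9.18, 9.15 and 9.19 on the wild-type arrays. It rose 1.71-fold (difference 0.78, SE 0.06, adjusted p = 9.72e-05, and 0.0164 with random blocks). Within each pair of knockout arrays the size was similar, with 0.78 for replicates 1 and 2 and 0.77 for replicates 3 and 4 in Snrpa1. For Srsf6 these values were -1.17 and -1.08, and for Sf3b3 -1.02 and -1.06.

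**Figure D1:**
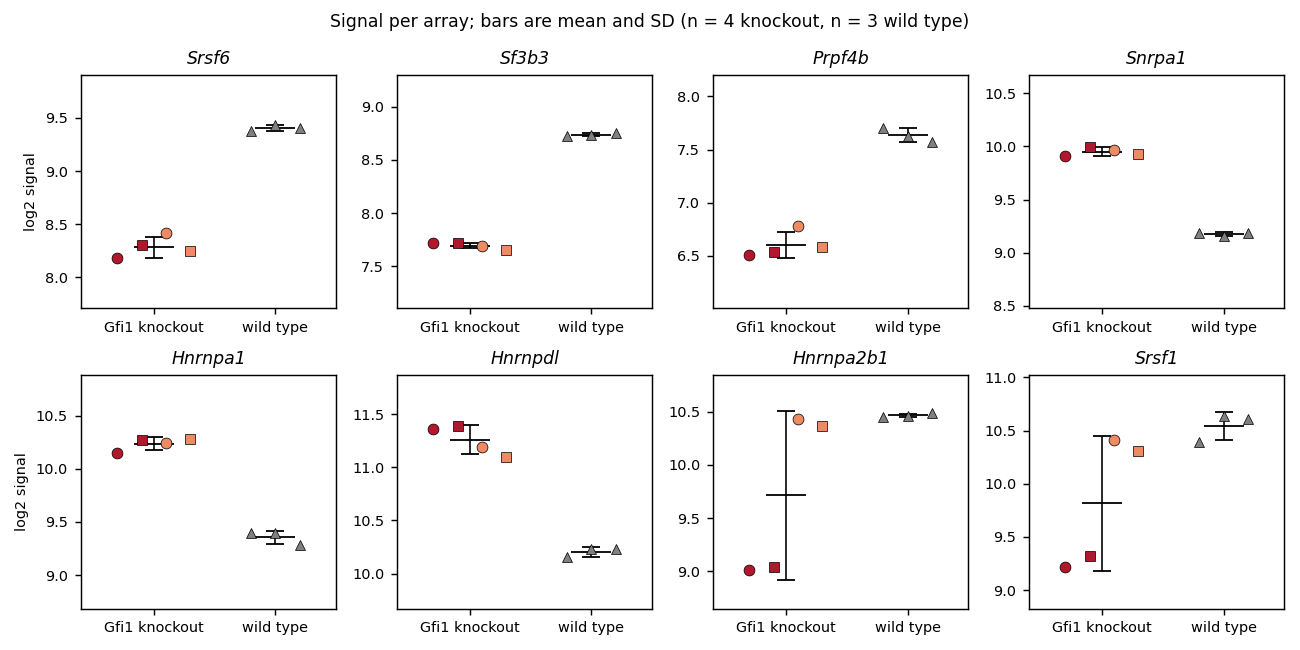
Log2 signal of each array for 8 splicing genes, with knockout arrays (red and orange, replicates 1 and 2 and replicates 3 and 4) left of wild-type arrays (grey) and bars for mean and SD; each panel spans the same range of log2 units. The first 6 genes separate the groups on every array, whereas Hnrnpa2b1 and Srsf1 lie well below wild type only on replicates 1 and 2.

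The promoters of these 6 genes are printed because Gfi1 acts through DNA sites. Each runs from 250 bases before to 50 after a transcript start listed in RefSeq (build GRCm38.p6), which for Prpf4b, Hnrnpa1 and Hnrnpdl lies within the outer bounds of the gene, and reads 5′ to 3′ on the gene's strand. Capitals mark AATC, the core of Gfi1 sites, and its reverse complement GATT, counted on both strands.
Srsf6 promoter (chr2:162931258-162931557, plus strand): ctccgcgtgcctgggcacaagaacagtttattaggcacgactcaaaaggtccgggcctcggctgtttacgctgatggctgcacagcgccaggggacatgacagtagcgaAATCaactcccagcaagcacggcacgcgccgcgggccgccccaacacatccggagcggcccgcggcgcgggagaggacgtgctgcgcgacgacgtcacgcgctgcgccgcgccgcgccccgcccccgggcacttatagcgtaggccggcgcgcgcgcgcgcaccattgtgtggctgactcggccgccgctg
Snrpa1 promoter (chr7:66060086-66060385, plus strand): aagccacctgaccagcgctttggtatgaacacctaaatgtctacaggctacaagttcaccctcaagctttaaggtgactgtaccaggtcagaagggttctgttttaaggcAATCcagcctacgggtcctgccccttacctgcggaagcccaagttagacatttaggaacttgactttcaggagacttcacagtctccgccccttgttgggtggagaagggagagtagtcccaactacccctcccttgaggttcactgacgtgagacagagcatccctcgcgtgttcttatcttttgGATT
Sf3b3 promoter (chr8:110846754-110847053, minus strand): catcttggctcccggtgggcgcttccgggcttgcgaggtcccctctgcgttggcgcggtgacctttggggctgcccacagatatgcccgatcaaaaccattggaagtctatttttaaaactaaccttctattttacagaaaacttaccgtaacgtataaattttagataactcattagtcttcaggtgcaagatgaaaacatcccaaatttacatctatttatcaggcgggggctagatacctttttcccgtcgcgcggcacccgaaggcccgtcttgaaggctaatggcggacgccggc
Prpf4b promoter (chr13:34875279-34875578, plus strand): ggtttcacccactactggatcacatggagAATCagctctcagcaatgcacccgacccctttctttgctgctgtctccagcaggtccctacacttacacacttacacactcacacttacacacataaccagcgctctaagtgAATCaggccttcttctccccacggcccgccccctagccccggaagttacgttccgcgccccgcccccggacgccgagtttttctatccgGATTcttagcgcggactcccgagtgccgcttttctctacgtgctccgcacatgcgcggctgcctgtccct
Hnrnpa1 promoter (chr15:103240147-103240446, plus strand): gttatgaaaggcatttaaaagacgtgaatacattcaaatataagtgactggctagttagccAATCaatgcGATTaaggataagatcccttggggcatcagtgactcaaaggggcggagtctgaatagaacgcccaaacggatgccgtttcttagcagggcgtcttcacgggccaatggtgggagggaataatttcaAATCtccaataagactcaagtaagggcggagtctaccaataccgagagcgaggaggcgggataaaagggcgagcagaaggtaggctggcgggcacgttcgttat
Hnrnpdl promoter (chr5:100039173-100039472, minus strand): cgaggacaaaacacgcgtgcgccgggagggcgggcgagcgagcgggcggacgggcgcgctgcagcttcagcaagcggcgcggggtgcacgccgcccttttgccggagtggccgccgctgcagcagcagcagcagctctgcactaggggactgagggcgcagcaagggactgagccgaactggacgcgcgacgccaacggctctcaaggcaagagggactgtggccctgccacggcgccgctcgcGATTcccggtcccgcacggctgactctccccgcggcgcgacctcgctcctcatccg
The core occurs 1 time in the window of Srsf6, 2 times for Snrpa1, 0 times for Sf3b3, 3 times each for Prpf4b and Hnrnpa1, and 1 time for Hnrnpdl. A sequence so short is common: 66.1% of the 62 members with a listed promoter hold it, against 66.8% of the promoters of tested genes and 73.7% over all 27025 genes listed (the first promoter of each). The longer form AAATCA, which contains the core, was in 6.45% of the members' promoters, among them that of Srsf6, and in 8.19% of those of tested genes. CCGGAAG, a form of the site of ETS factors, was in 29.0% of the members' promoters, including those of Sf3b3 and Prpf4b, against 20.3% of those of tested genes. CCAAT, the CCAAT box, was in 50% of them against 39.4%, and the promoter of Hnrnpa1 holds 4 copies on either strand. A match describes the letters of this window only.

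Among the 9 SR genes 2 rose, 2 fell and 5 did not pass the test, and their median difference of -0.35 was the lowest of the 7 groups. After Srsf6, the other fall was that of Srsf9, a small SR protein, at 9.46, 9.63, 9.69 and 9.70 on the knockout arrays and 9.99, 9.96 and 9.95 on the wild-type arrays. All knockout arrays lay lower, by 0.35 on average (SE 0.08, adjusted p = 0.00877, and 0.252 with random blocks). Srsf5 read 9.73, 9.94, 10.07 and 10.18 under the knockout label and 9.70, 9.63 and 9.54 in wild type, with replicate 1 barely above the wild-type arrays. It rose by 0.36 (SE 0.11, adjusted p = 0.0381, and 0.391 with random blocks). Srsf10, which represses splicing when dephosphorylated, read 8.76, 8.64, 8.49 and 8.48 on the knockout arrays against 8.32, 8.25 and 8.21 on the wild-type arrays. It rose by 0.34 (SE 0.09, adjusted p = 0.0183, and 0.283 with random blocks). Srsf1, the founding member of the family, read 9.21, 9.32, 10.42 and 10.31 on the knockout arrays and 10.39, 10.64 and 10.61 on the wild-type arrays. Its first pair of knockout arrays stood more than 1 log2 unit below every wild-type array, while the second pair lay close to them, and the difference of -0.73 (SE 0.32) gave an adjusted p of 0.105. Srsf3, which also takes part in mRNA export, read 9.27, 9.32, 9.95 and 9.98 against 9.99, 10.20 and 10.15 in wild type (-0.48, SE 0.20, adjusted p = 0.0916, and 0.0434 without knockout replicate 4). Srsf2 had the same shape at -0.52 (adjusted p = 0.0651), and Srsf4 and Srsf11 were above wild type on replicates 1 and 2 and below it on replicates 3 and 4.

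The proteins shared by the snRNPs differed little. The Sm core genes Snrpb, Snrpd3, Snrpe, Snrpf and Snrpg, whose products form the ring on each snRNA, had differences between -0.16 and 0.10, and none of these 5 passed the test. Snrpb2, a partner of Snrpa1 in U2 snRNP, was at -0.04 (adjusted p = 0.684), and Snrpc, a U1 protein, at 0.01 (adjusted p = 0.917). Thus 1 of 8 Snrp genes, Snrpa1, was called, with 3 of the 7 others at non-overlapping but close values.

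Of the 9 SF3 genes 2 rose, 1 fell and 6 did not pass. Sf3a1, a subunit of the SF3a complex, read 8.37, 8.37, 8.21 and 8.18 on the knockout arrays and 7.96, 7.95 and 7.92 on the wild-type arrays. It was higher on all 4 knockout arrays, by 0.34 on average (SE 0.07, adjusted p = 0.00848, and 0.184 with random blocks). Sf3b1, the SF3b subunit that holds the branch site, read 9.80, 9.82, 9.75 and 9.76 under the knockout label and 9.52, 9.56 and 9.58 in wild type. Its rise of 0.23 was small but tight (SE 0.06, adjusted p = 0.0139, and 0.348 with random blocks). The 3 further probe sets of Sf3b1 were not called, so the rise rests on the representative. They were at 0.07 for 1418562_at, 0.13 for 1440818_s_at and -1.70 for 1418561_at (adjusted p = 0.5, 0.579 and 0.054). The last was among the lowest 5% of signals under the knockout label. Among the representatives the fall of Sf3b3 thus stood beside small rises of 2 other subunits, and the other 6 lay between -0.20 and 0.13. In U2AF, which recognises the end of the intron ahead of U2 snRNP, the large subunit U2af2 read 9.55, 9.55, 9.64 and 9.43 on the knockout arrays and 9.75, 9.74 and 9.80 on the wild-type arrays. U2af2 fell by 0.22 (SE 0.07, adjusted p = 0.0337, and 0.515 with random blocks), the small subunit U2af1 was at -0.02 (adjusted p = 0.818), and U2af1l4, its relative, at -0.24 (adjusted p = 0.0906).

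Of the 12 Prpf genes 3 rose, 1 fell and 8 did not pass, and the median difference was 0.01. Prpf40b, a protein that binds U1 snRNP, had the largest rise, with 6.23, 6.35, 5.68 and 5.68 on the knockout arrays and 5.24, 4.83 and 4.78 on the wild-type arrays. The increase was 2.04-fold, and replicates 1 and 2 were higher than replicates 3 and 4 (difference 1.03, SE 0.21, adjusted p = 0.00717, and 0.14 with random blocks). Prpf39, another U1-associated protein, read 6.59, 6.61, 6.62 and 6.54 under the knockout label against 6.07, 6.27 and 5.98 in wild type. It rose by 0.48 with little spread among the knockout arrays (SE 0.08, adjusted p = 0.00305, and 0.23 with random blocks). Of its further probe sets, 1452688_at was at 0.31 and 1428172_at at -0.75 (adjusted p = 0.057 and 0.0971). The set 1428172_at departed from the representative (adjusted p of the difference 0.033, and 0.114 with random blocks). Prpf6, which bridges U5 with U4 and U6 in the tri-snRNP, read 7.88, 7.92, 7.66 and 7.76 against 7.63, 7.52 and 7.54 in wild type and rose by 0.24 (SE 0.08, adjusted p = 0.0483, and 0.437 with random blocks). The representatives of proteins at the core of the tri-snRNP and the catalytic spliceosome were not called. Prpf8, the central U5 protein, differed by -0.07, Prpf3 by 0.08 and Prpf4 by 0.13. Prpf19, a ubiquitin ligase of the catalytic stage, was at -0.09. The 3 further probe sets of Prpf19 were all called lower, at -0.28, -0.29 and -0.30 (adjusted p = 0.014, 0.0202 and 0.0132). With random blocks their adjusted p were 0.368, 0.397 and 0.358, and none departed from the representative. Prpf31, a U4 and U6 protein, was 0.38 higher (adjusted p = 0.0568). Its other probe set, 1453005_at, was at -0.39 (adjusted p = 0.0599). That set departed from the representative (adjusted p of the difference 0.00194, and 0.0538 with random blocks). Prpf38a and Prpf38b moved apart by pair, at 0.28 and 0.21 without replicates 3 and 4 and at -0.37 and -0.34 without replicates 1 and 2.

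The hnRNP genes, the largest group with 19 members, gave 3 rises, 3 falls and 13 members that did not pass, with a median of -0.13. Beside Hnrnpdl and Hnrnpa1, Hnrnph3 rose, with 8.40, 8.32, 8.47 and 8.43 on the knockout arrays and 7.98, 7.93 and 7.77 on the wild-type arrays. The groups did not overlap, and the rise was 0.51 (SE 0.07, adjusted p = 0.00179, and 0.152 with random blocks). Hnrnpa0, which binds AU-rich elements of cytokine mRNAs, read 8.46, 8.47, 9.21 and 9.26 under the knockout label against 9.86, 9.85 and 9.84 in wild type. It fell 1.99-fold, and more on replicates 1 and 2 than on replicates 3 and 4 (difference -0.996, SE 0.22, adjusted p = 0.0108, and 0.0513 with random blocks). Hnrnpm, a splicing regulator of innate immune transcripts in macrophages, read 8.12, 8.11, 8.40 and 8.40 on the knockout arrays and 8.79, 8.79 and 8.82 on the wild-type arrays, and fell by 0.54 (SE 0.10, adjusted p = 0.00415, and 0.0714 with random blocks). Hnrnpu, a nuclear scaffold protein, read 10.17, 10.12, 10.39 and 10.40 against 10.56, 10.52 and 10.52 in wild type, and its fall of 0.26 was close to the threshold (SE 0.09, adjusted p = 0.0481, and 0.337 with random blocks).

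Several hnRNP genes that did not pass were low on only one pair of knockout arrays. Hnrnpa2b1, a paralog of Hnrnpa1, read 9.01, 9.04, 10.44 and 10.37 on the knockout arrays and 10.46, 10.46 and 10.49 on the wild-type arrays. Replicates 1 and 2 were more than 1 log2 unit below wild type and replicates 3 and 4 were within 0.10 of the wild-type mean (difference -0.75, SE 0.40, adjusted p = 0.162). A drop of this depth was seen in the representative alone. On replicates 1 and 2, 1433829_a_at differed from the wild-type mean by -0.12 and -0.27. The values were -0.35 and -0.46 for 1434047_x_at and 0.35 and 0.17 for 1433830_at. Hnrnpr read 8.67, 8.63, 9.69 and 9.62 against 9.49, 9.64 and 9.72 in wild type, and Hnrnph1 read 8.82, 8.93, 9.66 and 9.70 against 9.55, 9.60 and 9.62. On replicates 3 and 4 Hnrnpr overlapped the wild-type arrays, and Hnrnph1 lay slightly above all of them. Hnrnpd, whose product promotes decay of AU-rich mRNAs, was 0.20 lower on replicates 1 and 2 and 0.35 higher on replicates 3 and 4. Hnrnpc, Hnrnpl, Hnrnpul1 and Hnrnpul2 lay between -0.14 and 0.02.

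The Lsm genes gave 2 rises, 3 falls and 7 members that did not pass, with a median of 0.18. Lsm2 to Lsm8 form the ring on U6 snRNA, and 6 of its genes were measured. Of these Lsm4 rose, Lsm3, Lsm6 and Lsm8 fell, and Lsm2 and Lsm7 did not pass. Lsm6 read 9.38, 9.14, 8.77 and 8.87 on the knockout arrays and 9.81, 9.68 and 9.64 on the wild-type arrays, and it was lower on replicates 3 and 4 than on replicates 1 and 2. It fell by 0.67 (SE 0.15, adjusted p = 0.0103, and 0.158 with random blocks). Lsm3 read 8.87, 8.82, 9.14 and 9.12 against 9.28, 9.27 and 9.33 in wild type and fell by 0.31 (SE 0.10, adjusted p = 0.0387, and 0.287 with random blocks). Lsm8, which is specific to the U6 ring, read 10.23, 10.20, 10.35 and 10.32 against 10.60, 10.47 and 10.47 and fell by 0.24 (SE 0.07, adjusted p = 0.0262, and 0.414 with random blocks). Lsm4 rose evenly, with 10.26, 10.23, 10.25 and 10.31 on the knockout arrays and 10.06, 9.93 and 9.96 on the wild-type arrays (0.28, SE 0.06, adjusted p = 0.00873, and 0.324 with random blocks).

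Outside the U6 ring, Lsm11, which with Lsm10 forms the U7 snRNP for histone mRNA processing, had the largest rise of the group. Lsm11 read 8.15, 7.999, 7.91 and 7.90 under the knockout label and 7.37, 7.40 and 7.41 in wild type, a difference of 0.59 (SE 0.08, adjusted p = 0.00111, and 0.0687 with random blocks). Its other probe set, 1439578_at, was at -0.22 (adjusted p = 0.13, and 0.551 with random blocks). That set differed from the representative by -0.81 (adjusted p = 0.0125, and 0.0917 with random blocks), so the rise rests on the representative. Lsm10 read 8.35, 8.32, 7.40 and 7.39 against 7.80, 7.66 and 7.74 in wild type, so that its pairs lay on opposite sides of the wild-type arrays (difference 0.13, SE 0.27, adjusted p = 0.722). Lsm1, which replaces Lsm8 in the cytoplasmic ring for mRNA decay, was 0.26 higher (adjusted p = 0.0683).

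The medians of the SR and hnRNP groups lay lower on knockout replicates 1 and 2 than on replicates 3 and 4. These medians show a shared direction and not how far the pairs differ gene by gene. The median range over the 4 knockout arrays was 0.51 for SR, 0.31 for hnRNP, 0.34 for Prpf and 0.33 for all genes. On knockout replicates 1, 2, 3 and 4 the SR genes had median differences from the wild-type mean of -0.51, -0.34, -0.18 and -0.24 and the hnRNP genes of -0.26, -0.23, 0.06 and 0.01, against 0.01, 0.00, -0.00 and -0.01 for all genes. At least 0.5 log2 units below the wild-type mean lay 5, 4, 1 and 1 of the 9 SR genes and 6, 6, 1 and 1 of the 19 hnRNP genes. Over all members the count was 14, 14, 5 and 5, which is 19.4%, 19.4%, 6.94% and 6.94%, against 18.3%, 18.6%, 12.1% and 12.5% of all genes. The Prpf medians (0.09, 0.13, 0.14 and 0.17) and the Lsm medians (0.20, 0.19, 0.10 and 0.07) were above 0 on every knockout array. Without knockout replicates 3 and 4, 51 members were called (20 higher and 31 lower, 70.8%, against 68.1% of all genes). Without knockout replicates 1 and 2, 40 were called (19 higher and 21 lower, 55.6%, against 57% of all genes). For the hnRNP genes these counts were 3 higher and 12 lower without replicates 3 and 4 (78.9% called). Without replicates 1 and 2 they were 4 higher and 4 lower (42.1% called). The shares of all genes higher and lower in these 2 fits were not counted. The counts by direction are therefore not read as particular to splicing genes. Both comparisons share the wild-type arrays, each rests on 2 knockout arrays, and what separates the pairs was not tested.

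**Figure D2:**
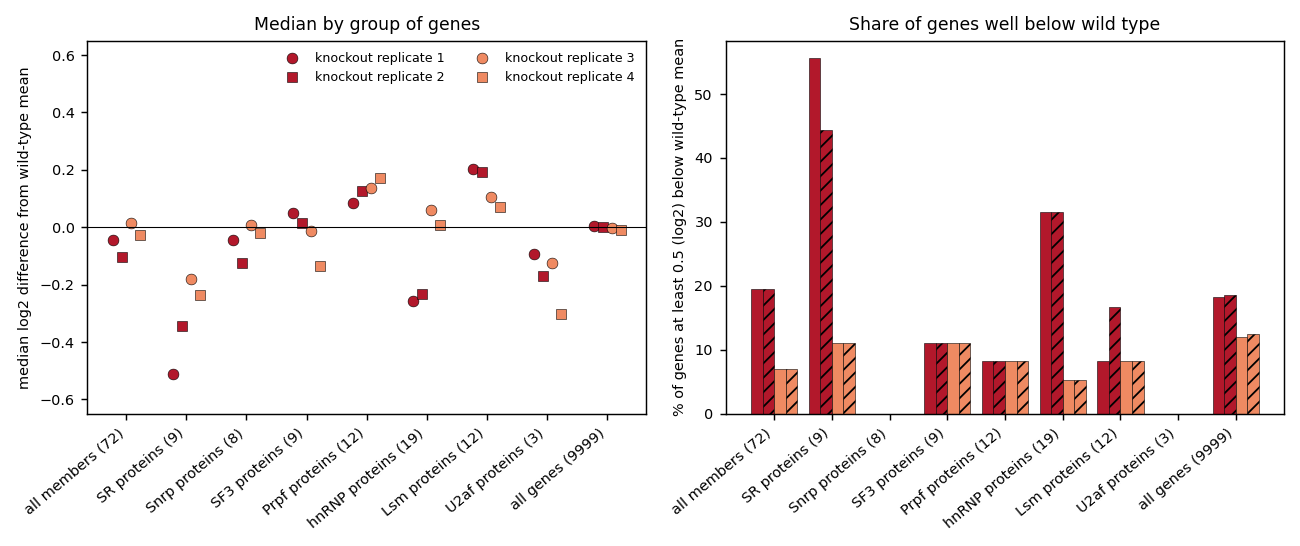
Left, the median log2 difference of each knockout array from the wild-type mean for all splicing genes, each group of them and all genes (number of genes in brackets); right, the percentage of those genes at least 0.5 log2 units below the wild-type mean. SR and hnRNP genes lie lower on replicates 1 and 2 (red) than on replicates 3 and 4, with 5 and 4 of 9 SR genes past that step, while all genes are centred at 0 on each array.

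Leaving out each array in turn kept 16 of the 24 calls throughout, and without wild-type replicate 2 these 16 were the only ones. The calls of Srsf5, Prpf6 and U2af2 ended in 6 of the 7 fits and those of Hnrnpu, Lsm3 and Lsm8 in 5. Each was lost without any 1 of the wild-type arrays and without knockout replicate 2. Srsf5 was also lost without knockout replicate 3 or 4, Prpf6 and U2af2 without 1 or 4, and Hnrnpu, Lsm3 and Lsm8 without 1. The highest adjusted p in these fits was 0.129 for Srsf5, 0.154 for Prpf6, 0.116 for U2af2, 0.123 for Hnrnpu, 0.119 for Lsm3 and 0.0831 for Lsm8. Srsf10 lost its call without wild-type replicate 2 (adjusted p = 0.0678) or 3 (adjusted p = 0.072), and Sf3b1 without wild-type replicate 2 (adjusted p = 0.0578). Averaging a gene's probe sets in place of the representative gave 8 rises and 16 falls, and 17 of these 24 calls were shared with the fit on representatives.

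Probe sets of one gene often disagreed. Of the 72 genes 45 had several probe sets, 142 in all, and 27 had 1. By limma over 17335 probe sets, 52 of the 169 were called (30.8%, against 40.9% of all probe sets), with 22 higher and 30 lower. With random blocks 12 were called, against 7.33% of all probe sets. Without wild-type replicate 2 or 3 these were 32 and 33 calls. All probe sets of a gene shared the sign of their difference in 23 of the 45 genes. The difference between each further probe set and the representative was then tested within arrays. Of 97 such tests 27 were called (27.8%, against 25.9% of 7336 over all genes), in 18 genes, and the further probe set was the lower one in 20. This direction rested on single arrays, since without wild-type replicate 1 or 2 only 11 were called, 5 with the further set lower, without wild-type replicate 3 there were 13 and without knockout replicate 1 there were 16. With random blocks 7 were called, against 5.93% over all genes. In 14 genes a further probe set was called in the fit over probe sets, while the representative was not called in the fit over genes. For this count, for the 23 genes of shared sign and for the 20 lower sets, no share over all genes was counted. They are therefore not read as particular to splicing genes. The array's names mark some sets as shared by transcripts (endings _a_at and _s_at) or as able to bind other genes' RNA (_x_at), and where the probes lie in each transcript was not analysed here.

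The probe sets of Snrpa1, Hnrnpa1 and Lsm6 were all called in one direction, of which with random blocks 2 of Snrpa1, 1 of Hnrnpa1 and 0 of Lsm6 held. The 3 sets of Snrpa1 rose by 0.78, 0.74 and 0.80. Those of Hnrnpa1 rose by 0.88, 0.25 and 0.86, of which the last was among the lowest 5% of signals in wild type, and the middle set, 1455305_x_at, rose less than the representative (adjusted p of the difference 0.00398, and 0.0986 with random blocks). The sets of Lsm6 fell by 0.67 and 0.66. All 4 sets of Srsf6 were lower, between -1.12 and -0.80, but only the representative was called. The further sets were low mainly on replicates 1 and 2. The set 1416721_s_at, for example, read 6.97, 6.99, 8.70 and 8.65 on the knockout arrays and 8.92, 8.88 and 8.86 on the wild-type arrays (adjusted p = 0.12).

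Srsf10 and Sf3a1 were called in both directions. For Srsf10 the representative rose by 0.34, while 1449121_at read 3.85, 3.52, 5.28 and 5.14 on the knockout arrays and 6.26, 6.24 and 6.14 on the wild-type arrays. That set fell 3.40-fold (-1.77, SE 0.45, adjusted p = 0.0185, and 0.0808 with random blocks) and differed from the representative by -2.10 (SE 0.51, adjusted p = 0.0254, and 0.0627 with random blocks). For Sf3a1 the set 1419087_s_at fell by 0.42 (SE 0.12, adjusted p = 0.0296, and 0.239 with random blocks) beside the rise of the representative. The largest falls among all probe sets of the splicing genes were in Srsf3, where 1416151_at read 3.89, 4.04, 5.40 and 5.15 on the knockout arrays and 6.74, 6.83 and 6.81 on the wild-type arrays. All knockout arrays were lower, 4.51-fold on average (-2.17, SE 0.38, adjusted p = 0.0046, and 0.0276 with random blocks), and 1416152_a_at fell 3.77-fold (adjusted p 0.0111, and 0.0433 with random blocks), while the representative of Srsf3 was not called. The 6 sets of Srsf3 did not share a sign. They ran from -2.17 to 0.81, with 2 called lower and 0 called higher.

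A called fall of a further probe set beside a representative that was not called in the fit over probe sets was seen in 13 of the 45 genes. The matching share over all genes was not counted, so this number may be ordinary. The genes were 7 hnRNP genes (Hnrnpab, Hnrnpc, Hnrnpd, Hnrnpf, Hnrnpk, Hnrnpu and Hnrnpul2), 3 SR genes (Srsf1, Srsf3 and Srsf11), Sf3b6, Prpf19 and Prpf38b. The set of Hnrnpd, 1457568_at, was among the lowest 5% of signals in both groups, and its groups of arrays overlapped. Outside Srsf1, Srsf3, Hnrnpu and Hnrnpul2 these falls ran from -0.87 for 1418693_at of Hnrnpc (adjusted p = 0.0285, and 0.122 with random blocks) to -0.22 for 1452869_at of Prpf38b (adjusted p = 0.0284, and 0.455 with random blocks). In Hnrnpu, 1423050_s_at read 7.81, 7.58, 8.59 and 8.33 on the knockout arrays and 9.80, 9.99 and 9.93 on the wild-type arrays, a 3.55-fold fall (-1.83, SE 0.24, adjusted p = 0.00137, and 0.0219 with random blocks). It differed from the representative by -1.56 (SE 0.18, adjusted p = 0.00205, and 0.0255 with random blocks). In Hnrnpul2, 1434551_at read 5.49, 5.19, 6.84 and 6.84 against 7.81, 8.02 and 7.86 in wild type, a 3.50-fold fall (-1.81, SE 0.44, adjusted p = 0.016, and 0.074 with random blocks), while the representative was at 0.01. For Srsf1 all 6 sets were lower, and 1428100_at fell by 1.77 (SE 0.55, adjusted p = 0.0386, and 0.114 with random blocks) where the representative was not called.

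Other genes had a further probe set that was higher than the representative or did not follow it. The 4 further sets of Prpf4b differed by -0.26 to 0.88 against -1.03 for the representative, and all 4 departed from it (adjusted p between 0.000694 and 0.00398, and 0.018 to 0.0996 with random blocks). For Sf3b3 the set 1430075_at, with signals of 4.99, 4.89, 4.90 and 5.16 on the knockout arrays and 5.07, 4.82 and 4.94 on the wild-type arrays, was at 0.04 (adjusted p of the difference from the representative 0.00144, and 0.0403 with random blocks). The falls of Prpf4b and Sf3b3 therefore rest on 1 probe set each. In Hnrnpa2b1, 1433830_at rose by 0.51 (SE 0.16, adjusted p = 0.0389, and 0.253 with random blocks) beside the representative at -0.75. Hnrnpdl had 4 sets that rose by 0.80 to 1.15 and 3 that were low on replicates 1 and 2 alone. Of these, 1420093_s_at read 4.90, 4.83, 6.36 and 6.31 on the knockout arrays and 6.39, 6.34 and 6.32 on the wild-type arrays (-0.75, SE 0.42, adjusted p = 0.192).

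**Figure D3:**
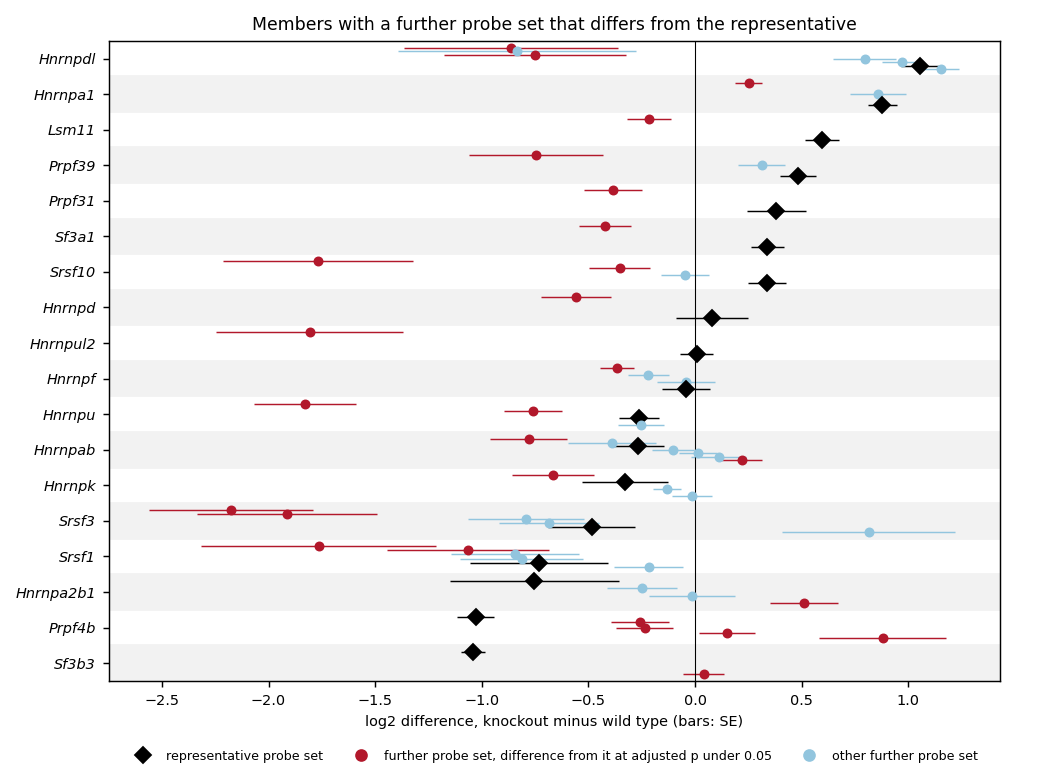
Log2 difference (knockout minus wild type) with its standard error for every probe set of the 18 splicing genes in which a further probe set departed from the representative. Black diamonds are representatives, red points are further probe sets that departed at an adjusted p under 0.05, and blue points are the others; 20 of the 27 red points lie left of their diamond.

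Of 145 further splicing genes listed by function, 124 were measured, and 33 rose and 19 fell (41.9%, against 43.1% of all genes). With random blocks 7 were called, against 9.04% of all genes. The Prp19 complex and catalytic proteins gave 5 rises and 5 falls of 24, the U1, U2 and minor snRNP proteins 6 and 4 of 20, and the tri-snRNP proteins 2 and 1 of 10. The SR-related proteins gave 6 and 3 of 18, the other regulators 6 and 6 of 32, and the exon junction complex 1 and 0 of 2. Among the kinases of SR proteins and the snRNP assembly factors 7 of 18 rose and 0 fell at this threshold (38.9% called, against 43.1% of all genes, with 21.5% of all genes higher), with a median of 0.19. Gemin2, an SMN-complex protein that loads Sm proteins onto snRNA, read 7.16, 7.16, 7.34 and 7.22 on the knockout arrays and 6.31, 6.23 and 6.38 on the wild-type arrays. It rose 1.88-fold on all 4 arrays (adjusted p = 0.000151, and 0.0191 with random blocks).

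The largest rises were those of Snrnp48, a protein of the minor spliceosome, and Rbm39, a U2AF-related factor. Snrnp48 read 8.98, 8.82, 8.57 and 8.46 on the knockout arrays and 7.82, 7.70 and 7.73 on the wild-type arrays (0.95, SE 0.13, adjusted p = 0.00136, and 0.0344 with random blocks). Rbm39 read 8.09, 8.07, 7.93 and 7.78 against 7.16, 7.00 and 6.97 in wild type (0.93, SE 0.10, adjusted p = 0.000437, and 0.0325 with random blocks). Taf15, an RNA-binding protein, and Rbfox2, a regulator of alternative exons, each rose by 0.92 (adjusted p = 0.013 and 0.0205, and 0.223 and 0.124 with random blocks). The largest fall was that of Bclaf1, an SR-related protein, with 6.50, 6.47, 7.85 and 7.73 on the knockout arrays and 8.79, 8.77 and 8.71 on the wild-type arrays. Its fall was deeper on replicates 1 and 2 and averaged 3.07-fold (-1.62, SE 0.38, adjusted p = 0.0123, and 0.0475 with random blocks). Luc7l3, a U1-associated protein, read 8.56, 8.49, 8.87 and 8.87 against 9.59, 9.60 and 9.63 in wild type and fell 1.88-fold (adjusted p = 0.000892, and 0.0168 with random blocks). Celf2 (-0.67), Mbnl1 (-0.65) and Rbm14 (-0.56), which regulate alternative splicing, fell at adjusted p of 0.00655, 0.0163 and 0.0153, and with random blocks these were 0.0639, 0.0961 and 0.144. Rbfox2 and Mbnl1 lost their call without any 1 wild-type array (highest adjusted p 0.0742 and 0.058), Taf15 without wild-type replicate 2 or 3 (0.0551) and Rbm14 without wild-type replicate 1 or 2 (0.0602). The count of 52 calls was 31 without wild-type replicate 2 and 33 without wild-type replicate 3.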

How the data were processed

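The authors deposited 1 column of intensities per array for 19431 probe sets, on a linear scale as the values' range shows. The submitters' processing notes name RMA, with no version. RMA shares one signal distribution among arrays, so an array-wide change of RNA cannot be read. Median intensity per array ran from 93.8 to 101. The number of arrays limits the precision.

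Intensities were taken to log2. Probe sets were named from the platform annotation table, and RefSeq tables supplied the promoters. Knockout arrays were compared with wild-type arrays by limma 3.58.1 in R 4.3.3 (2 groups, moderated two-sided test, threshold 0.05). Benjamini-Hochberg adjustment was over 9999 genes, 17335 probe sets or 7336 differences between probe sets. These main fits were first tested on simulated arrays with independent noise. The simulation held no pairs of knockout arrays, so it does not show how the calls fare under them. The alternative fits, random blocks included, were not simulated. The members and lists were chosen with earlier results of these data known. Values per array were printed for up to 4 called rises and 4 called falls per group, the 8 largest probe set disagreements, and the 5 largest rises and falls of other splicing genes. Other members shown per array (Srsf1, Hnrnpr, Hnrnph1, Lsm10) were chosen after their values were seen. So were the further probe sets of Srsf6, Sf3b1, Sf3b3, Hnrnpa2b1, Hnrnpc, Hnrnpd, Prpf19, Prpf31, Prpf38b, Prpf39, Lsm11 and Hnrnpdl. Same-numbered arrays deviated from their group means with correlations of 0.12, -0.09 and 0.11, so the numbers do not pair them. Alternatives covered scaling, a filter on dim probe sets, priors, array weights, mean probe sets, a fold of 1.2, no moderation, a replicate block, left-out arrays and, added after seeing the data, random blocks and left-out pairs.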

Additional observations from a re-analysis of the deposited data

How the results depend on the processing

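Of 24 member calls, 10 remained against a fold of 1.2 and 6 with random blocks, and there were 40 without knockout replicates 1 and 2 and 51 without replicates 3 and 4 (both chosen, like the random blocks, after seeing the data). Leaving out each array gave 16 to 29. For the 52 member probe sets these counts were 22, 12, 86, 119 and 32 to 66. For the 27 probe set disagreements, 9 were called without dim probe sets, 14 without moderation, 7 with random blocks, 52 without knockout replicates 3 and 4, and 11 to 32 with each array left out. For the 52 calls among other splicing genes, 14 were called against a fold of 1.2, 7 with random blocks, 94 without knockout replicates 3 and 4, and 31 to 54 with each array left out. When probe sets were averaged per gene, Srsf10 (-0.46), Sf3a1 (-0.041) and Sf3b1 (-0.32) changed direction, at adjusted p of 0.0516, 0.611 and 0.181, since their further probe sets averaged lower. Prpf4b, Hnrnpdl, Prpf39 and Lsm8 also lost their calls with averaged probe sets. Only 4 members, Srsf6, Snrpa1, Sf3b3 and Hnrnpa1, kept their calls in every alternative. With a replicate block, in which knockout replicate 4 has no partner and drops out, 22 members (11 higher and 11 lower), 50 probe sets, 22 disagreements and 43 other genes were called. The 28 of 38 named genes that changed their call in some alternative did so mostly with random blocks (23) or the fold of 1.2 (19). Scaling alternatives, array weights and the fold were not run for probe set disagreements. Of these, only median centring, a shift of a whole array's log2 signal, cancels in such differences. Causes were not tested.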
